A study of Mus musculus with 24 samples.

Results

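The genes described here encode the proteins that write, erase and read the main methyl marks of chromatin, together with their closest partners. They number 49 and were named by function, though with earlier results of these data known. They were grouped by mark as 13 genes of H3K27 methylation, 9 of H3K4 methylation, 16 of H3K9 methylation, 8 of DNA methylation and 3 histone deacetylases. Of these, 47 were matched by RefSeq transcript to a probe on the array, among 22911 gene symbols measured, while no probe was matched to Kmt2a or Setdb2. Where several probes measured a gene, the brightest was used.

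Methyl groups on lysines of the histone H3 tail are set by SET-domain enzymes and removed by amine oxidases and JmjC demethylases. The Polycomb complex PRC2 methylates H3K27 and the PRC1 complexes bind that mark through CBX proteins, which keeps developmental genes silent, whereas H3K4 methylation accompanies active promoters and H3K9 methylation marks heterochromatin, where HP1 proteins bind. DNA methylation is copied at replication by DNMT1 with UHRF1, is set anew by the DNMT3 enzymes and is oxidised by the TET enzymes.

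The study compared tumour cells before and after dormancy in 2 syngeneic mouse models of minimal residual disease, in which vaccination with irradiated tumour cells held the disease in check. B16-M is the parental B16-F1 melanoma carrying GFP, B16-D is the line recovered from dormancy in mice vaccinated with cells making GM-CSF, and the lines B16-D-733, B16-D-735 and B16-D-739 were read here as the second-generation dormant lines, which the study recovered from brain. M0-p20 was read as the parental DA1-3b myeloid leukemia and J365-p20 as a leukemia line isolated late in dormancy, its name being read as the day, from mice vaccinated with cells making IL-12. All recovered cells had been amplified in vitro, so the arrays measured cells growing in culture (melanoma cells in DMEM with serum) and not cells at rest in the animal. The labels give neither the number of mice or clones behind a line nor the meaning of p20, each dormant line may therefore be a single isolate, and nothing states that the arrays of a line came from separate cultures, so that p-values measure only the spread between these arrays.

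There were 3 arrays of B16-M, 4 of B16-D, 4 of B16-D-733, 3 of B16-D-735, 3 of B16-D-739, 4 of M0-p20 and 3 of J365-p20, on 3 slides of 8 arrays. Replicate 2 of B16-D was set aside, because 90.3% of its spots were called well above background against 46.0 to 55.8% on the other 23 arrays. The 7 melanocyte markers were above background on every array of each melanoma line, and the 8 hematopoietic markers on every array of both leukemia lines. In each leukemia line 3 of the 7 melanocyte markers (Mitf, Tyr and Sox10) were above background on all arrays and 3 (Tyrp1, Dct and Mlana) on none. Mitf was at 0.35 to 2.63 on the leukemia arrays and at 5.84 to 6.66 on the melanoma arrays. On the melanoma arrays 1 to 3 of the 8 hematopoietic markers were above background throughout a line and Ptprc was on none. A fibroblast list moved with B16-D-735, since 3 of its 4 markers were above background on all its arrays against 1 or 2 of 4 in the other melanoma lines. The summed log2 level of that list was 0.11 to 0.59 on the B16-D-735 arrays and -1.89 to -0.43 on the other melanoma arrays, and Dcn was above background on the 3 B16-D-735 arrays and on no other array, while Pdgfra was above background on none of the 3. The part of these transcripts in the B16-D-735 results below was not tested. The 3 brain markers were above background on every array of each melanoma line. Their summed log2 level was 2.87 or more on the B16-D-733 arrays and 2.54 or less on the other melanoma arrays. Mbp was at 2.05 to 2.55 in B16-D-733 and at -2.05 to 0.53 in the other melanoma lines, while Gfap and Snap25 overlapped. The part of Mbp in the B16-D-733 results, and in the mean of B16-D-733 and B16-D-739, was not tested. In bulk RNA fewer cells of a type and less RNA per cell cannot be told apart.

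All values below are levels on a log2 scale, in which 0 is the 75th percentile of the measuring spots of that array and a difference of 1 is a 2-fold change. A level ranks the same probe between arrays and cannot be set against the level of another gene. Differences were tested with limma over all genes and unnamed transcripts above background on at least 3 arrays of the fit, and a difference was called where the Benjamini-Hochberg adjusted p was under 0.05. Precision is limited by how many arrays there are.

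Nearly the whole set was expressed in both tumours. Of the 47 measured genes, 46 were well above background on every array of B16-M, B16-D, B16-D-733, B16-D-739, M0-p20 and J365-p20, and 47 on every array of B16-D-735. The exceptions were 2 genes with opposite cell type patterns. Cbx7, a chromodomain subunit of PRC1 that binds methylated H3K27, was above background on all melanoma arrays and on no leukemia array. Dnmt3l, a catalytically inactive partner of the de novo DNA methyltransferases, was above background on all leukemia arrays, on no array of B16-M or B16-D-739, on 2 of 3 of B16-D, on 1 of 4 of B16-D-733 and on 3 of 3 of B16-D-735, where its levels of -4.74, -4.83 and -4.87 were close to the -4.89, -4.74 and -4.99 of B16-M.

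The sequences upstream of these genes and of Uhrf1, the genes on which the cell type and B16-D-735 results turn, differ in their density of CpG, the site of DNA methylation. The 250 bases before the RefSeq start are shown 5' to 3' on the gene's strand in build GRCm38.p6, with CpG in capitals for Cbx7 and Dnmt3l and, for Uhrf1, with the match to TTTNGCGC, a motif of the E2F family, in capitals. The Cbx7 window is chr15:79932647-79932896 on the minus strand, the Dnmt3l window is that of the first of its 3 starts, chr10:78042037-78042286 on the plus strand, and the Uhrf1 window is that of the second of its 2 starts, chr17:56304063-56304312 on the plus strand.
Cbx7: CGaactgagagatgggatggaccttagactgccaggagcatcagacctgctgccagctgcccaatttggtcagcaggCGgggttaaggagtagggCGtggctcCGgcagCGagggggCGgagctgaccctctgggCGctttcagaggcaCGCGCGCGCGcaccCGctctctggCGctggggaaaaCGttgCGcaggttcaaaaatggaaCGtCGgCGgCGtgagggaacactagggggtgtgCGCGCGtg
Dnmt3l: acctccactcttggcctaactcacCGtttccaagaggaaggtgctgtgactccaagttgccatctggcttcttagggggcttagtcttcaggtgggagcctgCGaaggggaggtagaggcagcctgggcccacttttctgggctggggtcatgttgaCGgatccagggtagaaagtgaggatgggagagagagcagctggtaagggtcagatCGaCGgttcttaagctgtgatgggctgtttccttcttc
Uhrf1: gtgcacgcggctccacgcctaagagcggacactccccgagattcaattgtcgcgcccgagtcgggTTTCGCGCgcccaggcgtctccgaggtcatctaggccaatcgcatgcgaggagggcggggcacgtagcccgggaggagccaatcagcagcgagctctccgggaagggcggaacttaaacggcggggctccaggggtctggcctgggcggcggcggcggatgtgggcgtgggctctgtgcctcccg
The Cbx7 window held 23 CpG, a number reached by 13.3% of the 32851 windows of all genes, and the Uhrf1 window shown held 30, reached by 5.94%. The window of the first Uhrf1 start held 10, reached by 37.8%, and no match to the motif. The Dnmt3l window held 5, reached by 55.6% and so near the middle of all windows, and those of its other starts held 4 and 3. RefSeq windows were found for 41 of the 49 genes, in 58 windows with a median of 21.5 CpG, against a median of 6 over all windows. The E2F motif, searched on both strands, was in 4 of the 58 windows (6.90%), those of Cbx3, Cbx5, Dnmt1 and Uhrf1, and in 1.13% of all windows, and a match is a description of the letters only.

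The first comparison asks which of these genes changed between the parental melanoma and the lines recovered from dormancy. Cbx7 in B16-D-735 was the only call. No gene of the set passed the test in B16-D against B16-M, where 3.6% of all genes tested were called, or in B16-D-733 against B16-M, with 5.57% called, or in B16-D-739 against B16-M, with 3.71% called. In B16-D-735 against B16-M 1 of 47 passed, Cbx7, which was lower, with 5.03% of all genes called and 1.97% called lower. At an unadjusted p under 0.05 there were 7 genes in B16-D, 7 in B16-D-733, 8 in B16-D-735 and 8 in B16-D-739, beside 16.6%, 17.5% and 16.3% of all genes in the first 3 of these lines and 3404 of 24310 in B16-D-739. These 4 comparisons share the B16-M arrays, so their values stand side by side and are not independent. The summed log2 level of the hematopoietic list was 1.04 to 1.37 on the B16-M arrays and 1.70 to 2.94 on those of the dormant melanoma lines, a difference carried by Il3ra (0.68 to 1.16 in B16-M and 1.54 to 2.92 in the dormant lines). Its part in these comparisons was not tested.

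The differences of the set from B16-M were centred near 0. In B16-D they ranged from -0.52 to 0.51 with a median of 0.06, against -0.04 over all genes, and 45 of 47 were under 0.5 in size. The medians were 0.12 in B16-D-733, -0.01 in B16-D-735 and 0.07 in B16-D-739, beside 0.03, -0.01 and 0.00 over all genes. With a median standard error of 0.14 to 0.15, the 95% interval of the difference lay within 1 of 0, so within a 2-fold change, for 39 of 47 genes in B16-D, 42 in B16-D-733, 43 in B16-D-735 and 42 in B16-D-739. By mark, the medians in B16-D, B16-D-733, B16-D-735 and B16-D-739 were 0.06, 0.14, 0.06 and 0.07 for H3K27, -0.09, -0.01, -0.03 and -0.12 for H3K4, 0.07, 0.12, -0.05 and 0.09 for H3K9, and 0.16, 0.06, -0.26 and 0.16 for DNA methylation. The lowest of these medians was that of the DNA methylation genes in B16-D-735.

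**Figure D1:**
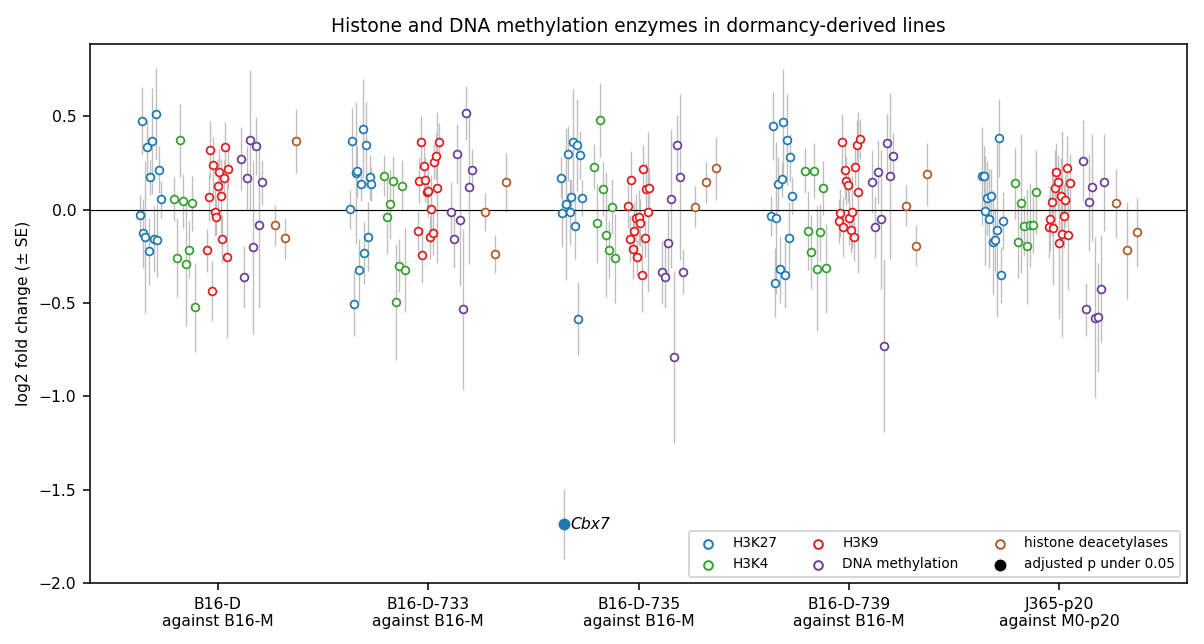
Log2 fold change (y axis, bars are the SE) of each tested gene in the 4 dormant melanoma lines against B16-M and in J365-p20 against M0-p20, coloured by mark, with a filled point past the threshold. Most points lie between -0.5 and 0.5, and the single filled point is Cbx7 in B16-D-735 at -1.68.

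Of the writers chosen by name, none of Ezh2, Suv39h1, Dnmt3a and Dnmt3b passed against B16-M. Ezh2, the main PRC2 methyltransferase, stood at 3.15, 3.08 and 3.20 in B16-M, at 3.31, 3.34 and 3.30 in B16-D, at 3.34, 3.27, 3.24 and 3.27 in B16-D-733, at 3.21, 3.37 and 3.05 in B16-D-735 and at 3.25, 3.31 and 3.36 in B16-D-739. All Ezh2 values of B16-D, B16-D-733 and B16-D-739 lay above those of B16-M, and the difference of B16-D, 0.17 ± 0.09 (SE, adjusted p = 0.40), did not pass. Suv39h1, which trimethylates H3K9 in heterochromatin, was at 3.04, 2.74 and 3.03 in B16-M, at 3.13, 3.41 and 3.28 in B16-D, at 3.09, 3.26, 3.42 and 3.12 in B16-D-733, at 3.07, 3.18 and 2.90 in B16-D-735 and at 3.20, 3.20 and 3.44 in B16-D-739. The arrays of B16-D, B16-D-733 and B16-D-739 lay above those of B16-M, and the difference of B16-D, 0.34 ± 0.13 (SE), had an adjusted p of 0.21. Dnmt3a, a de novo DNA methyltransferase, was at 1.57, 1.80 and 1.73 in B16-M, 0.99, 1.53 and 1.50 in B16-D, 1.55, 1.56, 1.53 and 1.53 in B16-D-733, 1.00, 1.53 and 1.49 in B16-D-735 and 1.46, 1.74 and 1.62 in B16-D-739. All arrays of B16-D, B16-D-733 and B16-D-735 were below those of B16-M, with a difference of -0.36 ± 0.17 (SE, adjusted p = 0.29) in B16-D that did not pass. Dnmt3b, the other de novo enzyme, was at 0.49, 0.23 and 0.63 in B16-M and at 0.45, 0.81 and 0.59 in B16-D, at 0.81, 0.54, 1.04 and 0.59 in B16-D-733, at 0.22, 0.47 and 0.12 in B16-D-735 and at 0.52, 0.53 and 0.90 in B16-D-739, with overlap between B16-M and every dormant line.

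Of the erasers, Kdm6b, Tet2 and Kdm5b were chosen by name and did not pass against B16-M, the levels of Kdm5b being given below. Kdm6b, an H3K27 demethylase, ranged over -0.50, -0.41 and 0.22 in B16-M, 0.41, 0.39 and 0.04 in B16-D, -0.04, -0.21, 0.50 and 0.21 in B16-D-733, -0.22, 0.49 and 0.08 in B16-D-735 and 0.18, -0.11 and 0.37 in B16-D-739. The lines overlapped, and its difference in B16-D, 0.51 ± 0.25 (SE), had an adjusted p of 0.32. Tet2, which oxidises methylated cytosine, was at -0.04, 0.23 and 0.45 in B16-M and at 0.47, 0.60 and 0.59 in B16-D, at 0.92, 0.87, 0.69 and 0.43 in B16-D-733, at 0.35, 0.71 and 0.63 in B16-D-735 and at 0.57, 0.67 and 0.46 in B16-D-739. All B16-D and B16-D-739 arrays lay above those of B16-M, while B16-D-733 and B16-D-735 each overlapped it. The difference of B16-D-733 was 0.52 ± 0.15 (SE, adjusted p = 0.0614) and passed with slide as a block, at 0.53 with an adjusted p of 0.0490. It also passed with the replicate number as a block, at 0.62 with an adjusted p of 0.0409. That setting also left out replicate 3 of B16-D-733, the lowest Tet2 array of the line at 0.43, so its value is not that of blocking alone. Within slides 1, 2 and 3 the difference of B16-D-733 from B16-M was 0.25, 0.69 and 0.69.

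Trim28, the corepressor that brings SETDB1 to zinc finger protein targets, was above B16-M in B16-D-733 and B16-D-739 by amounts that missed the threshold here and passed in both lines with slide as a block. It stood at 5.98, 5.76 and 5.80 in B16-M, at 6.10, 6.29, 6.14 and 6.31 in B16-D-733 and at 6.28, 6.18 and 6.22 in B16-D-739, so that neither of these lines overlapped B16-M, beside 6.06, 5.98 and 6.17 in B16-D and 6.10, 5.97 and 5.83 in B16-D-735. The differences were 0.36 ± 0.10 (SE, adjusted p = 0.0574) and 0.38 ± 0.11 (SE, adjusted p = 0.0799), and with slide as a block they were 0.35 (adjusted p = 0.0387) and 0.38 (adjusted p = 0.0418). Within slides 1, 2 and 3 the differences were 0.34, 0.34 and 0.32 in B16-D-733 and 0.42, 0.42 and 0.30 in B16-D-739. Trim28 was picked out after its values were seen. With the block the number of genes of the set past the threshold was 0 in B16-D, 3 in B16-D-733 (Cbx7, Tet2 and Trim28), 2 in B16-D-735 (Cbx7 and Ring1) and 1 in B16-D-739 (Trim28), while the block also raised the share called over all genes to 5.13%, 9.06%, 8.86% and 6.11% in the same order. Trim28 in B16-D-733 also passed when only genes above background on every array of a line were kept and when the mean of all probes was used.

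Cbx7 was lower in B16-D-735 than in each other melanoma line with which it was compared. Its level was -0.997, -1.25 and -1.32 in B16-M and -1.27, -1.33 and -1.35 in B16-D. It was -1.64, -1.59, -1.89 and -1.66 in B16-D-733, -1.51, -1.43 and -1.80 in B16-D-739, and -2.49, -3.35 and -2.78 in B16-D-735. Every B16-D-735 array was lower than every other melanoma array. Against B16-M, Cbx7 was 3.21-fold lower in B16-D-735 (log2 difference -1.68 ± 0.19 (SE), adjusted p = 0.000108), with values of -2.03, -1.24 and -1.78 within slides 1, 2 and 3. Against B16-D it was 2.94-fold lower (-1.56 ± 0.19 (SE), adjusted p = 0.000189), with -2.05 and -1.43 within slides 1 and 3, the slides that hold both lines, and against the mean of B16-D-733 and B16-D-739 it was 2.36-fold lower (-1.24 ± 0.16 (SE), adjusted p = 0.000261). The call against B16-M held under all 27 alternative settings, and that against B16-D under 26, being lost when only those lines entered the fit (adjusted p = 0.0517). In B16-D-733 and B16-D-739 the differences from B16-M were -0.50 ± 0.17 (SE, adjusted p = 0.13) and -0.39 (adjusted p = 0.38). A single probe measured Cbx7, so no second probe could be compared and the settings of probe choice could not change its difference.

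B16-D-735 was also compared with B16-D and with the mean of B16-D-733 and B16-D-739, to see whether it departed from the other dormant lines. Against B16-D, 3 of 47 genes were lower and none higher, with 8.0% of all genes called and 3.93% called lower, and 10 had an unadjusted p under 0.05, beside 19.7% of all genes. Against the mean of the other second-generation lines 2 genes were higher and 4 lower, with 10.9% of all genes called, 5.31% higher and 5.55% lower, so the share of the set, 6 of 47, was near the background. No gene of the set was called in B16-D-733 against B16-D, with 0.481% called over all genes and 1 gene of the set at an unadjusted p under 0.05 beside 4.37% of all, or in B16-D-739 against B16-D, with 0.309% called and 2 at an unadjusted p under 0.05 beside 5.08% of all.

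Both maintenance factors of DNA methylation were lower in B16-D-735 than in B16-D. Uhrf1, which recognises hemimethylated DNA and recruits DNMT1, and whose upstream window with the E2F motif is shown above, was at 5.08, 5.01 and 4.87 in B16-D-735. It was at 5.39, 5.19 and 5.38 in B16-M, 5.37, 5.49 and 5.55 in B16-D, 5.35, 5.52, 5.72 and 5.54 in B16-D-733 and 5.56, 5.49 and 5.77 in B16-D-739. The B16-D-735 arrays were below those of every other melanoma line. The difference was -0.48 ± 0.12 (SE, adjusted p = 0.0275) from B16-D, a 1.39-fold lower level, -0.58 ± 0.10 (SE, adjusted p = 0.00246) from the other second-generation lines, and -0.33 (adjusted p = 0.16) from B16-M. Within slides it was -0.42 and -0.67 against B16-D on slides 1 and 3, and -0.74, -0.34 and -0.67 against the other second-generation lines. A second Uhrf1 probe gave -0.78 against B16-D. The call against B16-D held under 18 of 27 alternatives. It was lost with normexp background correction, with no filter on dim probes, with B16-D replicate 2, with the replicate block, with only the lines compared, without B16-D replicate 1 or 3 and without B16-D-735 replicate 1 or 2 (adjusted p from 0.0567 to 0.234), whereas that against the other second-generation lines held under all 27.

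Dnmt1, the maintenance methyltransferase, was at 0.61, 0.82 and 0.41 in B16-D-735 and at 1.15, 1.46 and 1.05 in B16-D. It was at 0.91, 0.88 and 1.06 in B16-M, 0.82, 0.81, 1.11 and 1.02 in B16-D-733 and 0.95, 0.90 and 1.45 in B16-D-739. The B16-D-735 arrays lay below those of B16-D and B16-M and overlapped B16-D-733 at its low end. The level was 1.52-fold lower than in B16-D (-0.61 ± 0.17 (SE), adjusted p = 0.0443), with -0.48 and -0.64 within slides 1 and 3, but the call held under only 8 of 27 alternatives, with adjusted p from 0.0193 to 0.258. Against the other second-generation lines the difference was -0.40 (adjusted p = 0.097), and -0.42 (adjusted p = 0.0134) with slide as a block.

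The H3K9 writers Setdb1, a methyltransferase of retroelement silencing, and Ehmt2, the euchromatic H3K9 methyltransferase G9a, were lower in B16-D-735 than in the other second-generation lines. Setdb1 was at -0.62, -0.68 and -0.57 in B16-D-735, -0.14, -0.17, -0.25 and -0.29 in B16-D-733 and -0.16, -0.22 and -0.34 in B16-D-739. The B16-D-735 arrays were the lower without overlap, by 0.40 on the log2 scale (-0.40 ± 0.08 (SE), adjusted p = 0.00866), and -0.38, -0.44 and -0.38 within slides. Yet in B16-M, at -0.31, -0.60 and -0.50, Setdb1 reached the range of B16-D-735, and in B16-D it was -0.37, -0.30 and -0.24. Ehmt2 was at 5.84, 5.99 and 5.87 in B16-D-735, 6.32, 6.30, 6.23 and 6.15 in B16-D-733 and 6.32, 6.26 and 6.30 in B16-D-739, beside 6.12, 6.05 and 6.31 in B16-M and 6.13, 6.05 and 6.17 in B16-D. It was lowest in B16-D-735 without overlap, and the difference of -0.37 ± 0.08 (SE, adjusted p = 0.0099) from the other second-generation lines was lost without B16-D-735 replicate 0 or 2.

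The genes that were higher in B16-D-735 than in the other second-generation lines were the H3K4 demethylase Kdm5b and the class I deacetylase Hdac2. Kdm5b was at 0.62, 1.35 and 1.25 in B16-D-735, 0.66, 0.74, 0.63 and 0.47 in B16-D-733 and 0.12, 0.50 and 0.48 in B16-D-739, with 0.29, 0.71 and 0.78 in B16-M and 1.16, 0.92 and 0.81 in B16-D. The B16-D-735 arrays overlapped all lines except B16-D-739. The difference of 0.58 ± 0.17 (SE, adjusted p = 0.0429) was 0.80, 0.04 and 0.88 within slides 1, 2 and 3 and held under 13 of 27 alternatives. Hdac2 was at -1.75, -1.78 and -1.82 in B16-D-735, -2.07, -2.11, -2.29 and -2.20 in B16-D-733, -2.04, -2.13 and -2.20 in B16-D-739, -1.84, -1.87 and -2.08 in B16-M and -1.99, -2.27 and -1.99 in B16-D. The B16-D-735 arrays were the highest without overlap, by 0.36 ± 0.09 (SE, adjusted p = 0.0241) over the other second-generation lines, and 20 of 27 alternatives kept the call.

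With slide as a block, 5 genes of the set passed in B16-D-735 against B16-D (Cbx7, Dnmt1, Ring1, Setdb1 and Uhrf1) and 11 against the other second-generation lines, adding Daxx, Dnmt1, Dnmt3b, Kdm4c and Ring1. Over all genes the block called 11.5% and 17.2%. Ring1, a PRC1 ubiquitin ligase subunit, was at -1.15, -1.79 and -1.21 in B16-D-735 and at -0.66, -0.55 and -1.17 in B16-M, which overlapped. Its difference from B16-M was -0.59 with adjusted p = 0.12, and with the block the adjusted p was 0.0135. Within slides the difference was -0.62, -0.60 and -0.54.

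**Figure D2:**
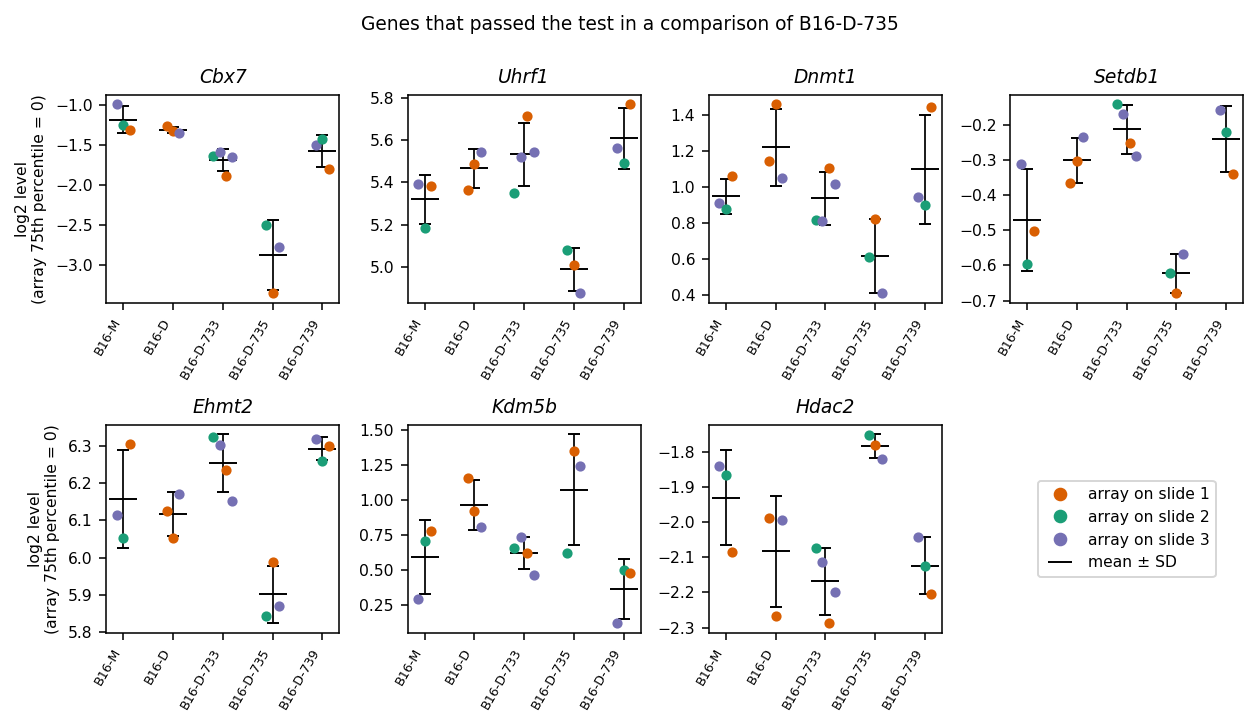
Log2 level (y axis) on each array of the 5 melanoma lines, coloured by slide, with mean ± SD, for the 7 genes past the threshold in a comparison of B16-D-735. The 3 B16-D-735 arrays of Cbx7, at -3.35 to -2.49, are below all other melanoma arrays, while those of Kdm5b overlap the other lines.

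Other genes of the same pathways, from a list of 67 fixed with the set, were called against B16-M in numbers near the background. Those called were higher. Of the 64 tested 2 were called in B16-D (3.12%), 3 in B16-D-733 (4.69%), 2 in B16-D-735 (3.12%) and 1 in B16-D-739 (1.56%), beside the 3.6%, 5.57%, 5.03% and 3.71% of all genes. Yaf2, a subunit of variant PRC1, was at 2.72, 2.44 and 2.66 in B16-M, 3.22, 3.22 and 2.99 in B16-D, 3.25, 3.14, 3.19 and 2.99 in B16-D-733, 3.13, 3.06 and 3.14 in B16-D-739 and 2.73, 2.90 and 2.45 in B16-D-735. It was above B16-M without overlap in every dormant line but B16-D-735, by 0.54 (adjusted p = 0.0374) in B16-D, 0.54 (adjusted p = 0.0185) in B16-D-733 and 0.51 (adjusted p = 0.0481) in B16-D-739. Pcgf6, another variant PRC1 subunit, was higher by 0.74 (adjusted p = 0.0305) in B16-D and by 0.63 (adjusted p = 0.0368) in B16-D-733. Cdyl, a chromodomain corepressor, was higher by 0.53 (adjusted p = 0.0342) in B16-D-733 and by 0.75 (adjusted p = 0.00685) in B16-D-735, and Atf7ip, the partner of SETDB1, by 0.54 (adjusted p = 0.0490) in B16-D-735.

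In B16-D-735 the Polycomb partners Epop, Kdm2b and Yaf2 were lower than in the other second-generation lines. Epop, a PRC2-associated protein, was at 1.30, 1.17 and 0.86 in B16-D-735, against 1.63, 2.05 and 2.12 in B16-D, 2.03, 2.11, 2.20 and 1.93 in B16-D-733, 2.34, 2.05 and 2.20 in B16-D-739 and 1.80, 1.43 and 1.72 in B16-M. Its arrays were below those of every other melanoma line, with -0.82 (adjusted p = 0.00737) against B16-D and -1.02 (adjusted p = 0.00038) against the other second-generation lines. Kdm2b, which brings variant PRC1 to CpG islands, was lower by 0.43 on the log2 scale (-0.43, adjusted p = 0.0218) than in B16-D and differed by -0.46 (adjusted p = 0.00488) from the other second-generation lines, and Yaf2 differed from the latter by -0.44 (adjusted p = 0.0212). Idh2, a mitochondrial dehydrogenase that makes the cofactor of the TET and JmjC enzymes, was higher than in B16-D by 0.41 (adjusted p = 0.0334). In all, 2 of 64 were higher and 3 lower against B16-D, and 1 was higher and 7 lower against the other second-generation lines. These counts, 7.81% and 12.5% of the 64, were near the 8.0% and 10.9% of all genes. Phf19, a PRC2 partner, was the gene higher than in the other second-generation lines (0.65, adjusted p = 0.0397), and was also higher than in B16-D (0.77, adjusted p = 0.0494). It was at 0.40, 0.32 and -0.23 in B16-D-735 and at 0.22, -0.11 and 0.16 in B16-M, which overlapped, and lower in B16-D (-0.15, -0.76 and -0.90), B16-D-733 (-0.06 to -0.48) and B16-D-739 (-0.45 to -0.90) by their means. None of the 64 was called in B16-D-733 or B16-D-739 against B16-D.

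Since Dnmt1 and Uhrf1 are used in S phase, 20 genes of DNA replication and mitosis were read beside them. Their median level was 4.15 to 4.51 on the B16-D-735 arrays and 4.27 to 4.46, within that range, on those of B16-M. It was 4.36 to 4.63 on the arrays of B16-D, 4.44 to 4.66 on those of B16-D-733 and 4.55 to 4.71 on those of B16-D-739. Against the other second-generation lines 2 of the 20 were called lower, Mcm4 (-0.42) and Ccna2 (-0.40), beside 5.55% of all genes. At an unadjusted p under 0.05 there were 10 of the 20, beside 22.7% of all genes. Of the 20 differences 16 were negative, and the median was -0.14, beside -0.02 over all genes. Against B16-D 1 of the 20 was called lower, Mcm4 (-0.43), beside 3.93% of all genes. There 5 of the 20 had an unadjusted p under 0.05, beside 19.7% of all genes. Against B16-M none of the 20 was called in B16-D-735, where 5.03% of all genes were, and the median was -0.004, beside -0.007 over all genes. The part of division in the Uhrf1 and Dnmt1 differences was not tested.

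The leukemia comparison asks the same of J365-p20 and its parent. None of the 46 genes tested passed in J365-p20 against M0-p20, with 1.07% of all genes called and 2 of the set at an unadjusted p under 0.05 beside 6.89% of all. The median was -0.04, against -0.02 over all genes, the range was -0.58 to 0.38, and the interval lay within 1 of 0 for 40 of 46. None of 64 other pathway genes passed either.

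Dnmt3a had the clearest separation. It was at 2.67, 2.64, 2.54 and 2.48 in M0-p20 and at 2.02, 2.05 and 2.06 in J365-p20. The arrays did not overlap, the difference was -0.53 ± 0.14 (SE), its 95% interval was -0.87 to -0.20, and the adjusted p over all genes was 0.289. With slide as a block the difference was -0.54 (adjusted p = 0.302), and a second, dimmer Dnmt3a probe gave -0.02. Rnf2, the catalytic ubiquitin ligase of PRC1, was at 1.15, 1.37, 1.11 and 1.08 in M0-p20 and 0.78, 0.81 and 0.88 in J365-p20, again without overlap, with -0.35 ± 0.15 (SE, adjusted p = 0.726).

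The arrays of the remaining genes chosen by name overlapped between the leukemia lines. Ezh2 was at 2.64, 2.71, 2.56 and 2.52 in M0-p20 and at 2.74, 2.65 and 2.65 in J365-p20. Kdm6b ran from 0.26 to 2.05 in M0-p20 and from 0.53 to 1.83 in J365-p20. Suv39h1 was at 3.67, 3.93, 3.51 and 3.40 and at 3.85, 3.82 and 3.87 in the same order of lines. In each of these genes the lines overlapped. Dnmt1 was at 1.62, 1.32, 0.88 and 1.05 in M0-p20 and at 1.39, 1.37 and 1.68 in J365-p20, a difference of 0.26, and Uhrf1 was at 4.91, 4.42, 4.15 and 3.89 and at 4.65, 4.32 and 4.50, a difference of 0.15. Tet2 was at 1.59, 2.08, 1.96 and 2.54 in M0-p20 and at 1.03, 1.43 and 1.93 in J365-p20, a difference of -0.58 (adjusted p = 0.86) with overlap. Setdb1 was at 0.13, 0.045, 0.11 and 0.12 in M0-p20 and at 0.27, 0.093 and 0.086 in J365-p20, also overlapping.

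Whether dormancy moved a gene differently in leukemia (J365-p20 against M0-p20) and in melanoma (B16-D against B16-M) was tested as an interaction. None of 46 genes passed, where 1.36% of all genes did, 2 of the set had an unadjusted p under 0.05 beside 7.87% of all, and the median difference of changes was -0.12 against 0.03 over all genes. Those 2 were Tet2, at -0.92 ± 0.31 (SE, adjusted p = 0.25, 95% interval -1.56 to -0.27), and Rnf2, at -0.57 ± 0.17 (SE, adjusted p = 0.143). Rnf2 was at 0.93, 0.91 and 0.97 in B16-M and 1.39, 1.08 and 0.99 in B16-D, all B16-D arrays being above B16-M, while the order was the opposite in leukemia. Its other probes gave 0.43 and -0.13 in melanoma and -0.32 and -0.75 in leukemia. With slide as a block the Rnf2 difference of changes was -0.52 with an adjusted p of 0.0398, and it was the single gene of the set to pass.

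The parental leukemia and melanoma differed in most of these genes. In M0-p20 against B16-M 28 of 47 genes passed, 20 higher and 8 lower in the leukemia, or 59.6%, close to the 56.2% called over all genes (31.0% higher and 25.2% lower). The median of the set was 0.26 and that of all genes 0.19. Of the 28, 21 passed under all 35 alternative settings. Cell type and tumour model cannot be told apart in this comparison.

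By mark, the DNA methylation genes stood highest in leukemia, with 5 of 8 higher, 1 lower and a median of 1.35. In H3K4 methylation 4 of 8 were higher and none lower, in H3K9 methylation 6 of 15 were higher and 2 lower, in H3K27 methylation 4 of 13 were higher and 4 lower, and of the deacetylases 1 of 3 was higher and 1 lower. By role, 9 of 15 erasers were higher and 1 lower, with a median of 0.78. These 15 include the 3 deacetylases, of which Hdac3 was among the higher genes and Hdac1 was the lower one. None of the 9 CBX, HP1 and PRC1 core subunits (readers and their complex partners) was higher. Of these 9, 4 were lower (Bmi1, Cbx1, Cbx7 and Ring1), and their median was -0.51.

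Among these PRC1 and HP1 genes, Cbx7 was at -6.89, -6.77, -6.20 and -5.24 on the M0-p20 arrays and at -7.31, -6.99 and -6.81 on those of J365-p20, against -1.32 to -0.997 in B16-M. No leukemia array was above background, so Cbx7 was at least 11.1-fold lower in M0-p20 than in B16-M. The lowest signals well above background on the leukemia arrays set the bound. The adjusted p in limma, 9.6e-12, was that of the measured difference and not of the bound. In J365-p20, which was not tested against B16-M, the bound was at least 12.4-fold. Bmi1, the PCGF subunit of canonical PRC1, was at 1.28, 0.78, 0.69 and 0.66 in M0-p20 and at 3.09, 3.04 and 2.95 in B16-M. It was 4.52-fold lower without overlap (-2.18 ± 0.18 (SE), adjusted p = 2.39e-09), and a second probe gave -2.30. Cbx5, the HP1 alpha gene, did not pass, but its probes disagreed, with -0.10 for the probe used and -1.56 for the other.

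In the DNA methylation machinery the de novo genes, Tet1 and Tet2 were higher in leukemia, while Tet3 did not pass. Dnmt3l, whose upstream window is shown above, was at -0.71, 0.56, 0.05 and -0.00 in M0-p20 and 0.04, 0.14 and 0.11 in J365-p20. It was at -4.89, -4.74 and -4.99 on the B16-M arrays, none of them above background. It was at least 27.1-fold higher in M0-p20, and the adjusted p in limma, 2.76e-10, was that of the measured difference and not of the bound. Dnmt3b was at 3.07, 2.82, 2.28 and 2.47 in M0-p20 and 3.01, 2.29 and 2.80 in J365-p20, 4.64-fold higher in M0-p20 than in B16-M (2.21 ± 0.20 (SE), adjusted p = 1.48e-08) with no overlap. Tet1 was at -0.32, 0.58, 0.47 and 0.55 in M0-p20 and at -2.51, -1.74 and -1.81 in B16-M, 5.07-fold higher (2.34 ± 0.45 (SE), adjusted p = 0.000184). Tet2 was 3.55-fold higher (1.83 ± 0.21 (SE), adjusted p = 4.55e-07). Uhrf1 went the other way, 1.97-fold lower in M0-p20 (adjusted p = 0.000103), and Dnmt1 differed by 0.27 (adjusted p = 0.22).

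Among the demethylases, Kdm5b had the largest difference. It was at 4.16, 5.27, 5.09 and 5.28 in M0-p20 and at 4.32, 5.19 and 5.44 in J365-p20, 20.4-fold higher in M0-p20 than in B16-M (4.35 ± 0.28 (SE), adjusted p = 5.9e-11). The H3K9 demethylase Kdm4b was at 2.16, 4.22, 3.84 and 3.74 in M0-p20 against 0.91, 1.25 and 1.31 in B16-M, 5.04-fold higher (2.33 ± 0.38 (SE), adjusted p = 3.21e-05). Both were higher on every M0-p20 array than on any B16-M array. Kdm6b was at 0.26, 2.05, 1.48 and 1.46 in M0-p20, 2.91-fold higher (1.54 ± 0.35 (SE), adjusted p = 0.000874). Kdm3a, another H3K9 demethylase, was at 2.37, 3.55, 3.76 and 3.77 in M0-p20 and 2.27, 2.43 and 2.18 in B16-M, 2.10-fold higher (1.07 ± 0.28 (SE), adjusted p = 0.00262), and here the lowest M0-p20 array reached the range of B16-M.

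The other changes of the writers were smaller. Ezh2 was lower in M0-p20 by 0.54 on the log2 scale (-0.54, adjusted p = 5.97e-05) while its PRC2 partners Eed (0.45, adjusted p = 0.0204), Suz12 (0.30, adjusted p = 0.0163) and Jarid2 (0.79, adjusted p = 0.021) were higher. Suv39h1 (0.69), Setdb1 (0.57), Dnmt3a (0.88) and Kmt2c (1.01), an enhancer H3K4 methyltransferase, were higher too, although second probes of Dnmt3a and Jarid2 gave 0.14 and 0.25. Of 65 other pathway genes 27 were higher and 16 lower. Epop was above background on no leukemia array and at least 79.8-fold lower in M0-p20, the PRC2 partner Phf19 was lower (-3.72, adjusted p = 4.08e-12), and the demethylase Phf8 was higher (2.29, adjusted p = 4.29e-14).

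**Figure D3:**
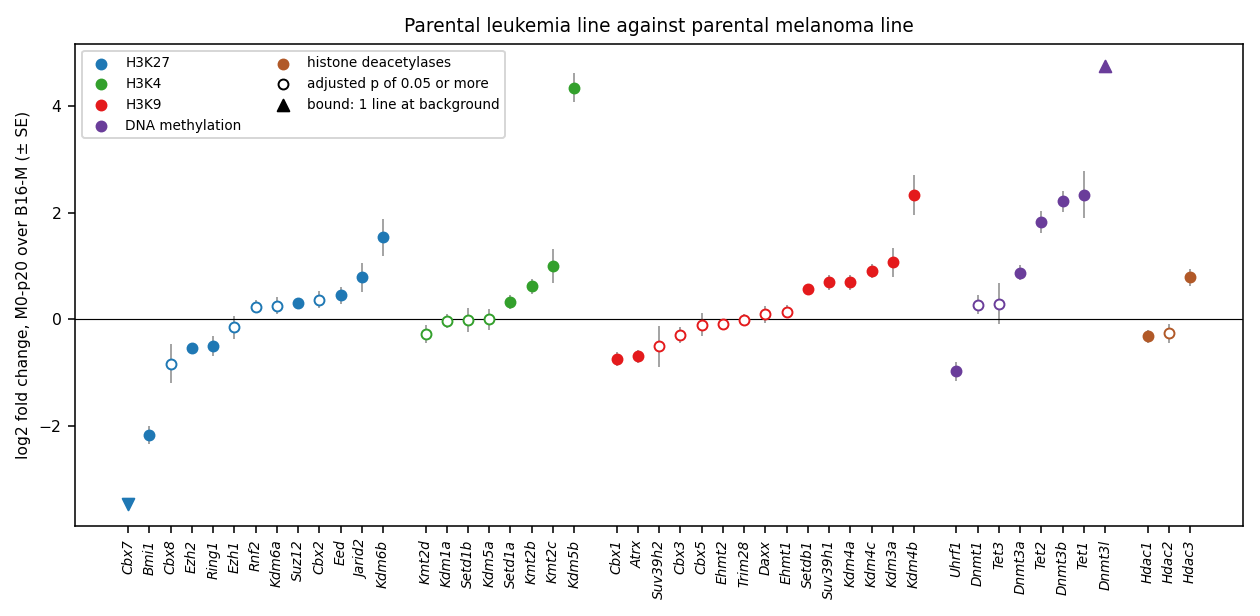
Log2 fold change of M0-p20 over B16-M (y axis, bars are the SE) for each measured gene, coloured by mark, with filled points past the threshold and triangles for Cbx7 and Dnmt3l at their bounds of -3.48 and 4.76, since 1 of the lines was at background. Kdm5b at 4.35 and Bmi1 at -2.18 are the farthest of the circles from 0 in each direction.

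Single arrays shaped part of these values. On replicate 0 of both leukemia lines 6 of 47 genes were lower by more than 0.5 than the mean of the other arrays of the line, and Bmi1 was higher, by 0.57 and 0.73. The 6 were demethylases and TET genes, Kdm4b at -1.78 in M0-p20 and -1.35 in J365-p20, Kdm6b at -1.41 and -1.01, Kdm3a at -1.32 and -0.88, Kdm5b at -1.05 and -0.99, Tet1 at -0.85 and -1.52, and Tet2 at -0.60 and -0.65. Both arrays lie on slide 2, as does M0-p20 replicate 3, on which Kdm4b was at 3.74 and not low. Without both arrays 29 genes passed in M0-p20 against B16-M and none in J365-p20 against M0-p20.

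**Figure D4:**
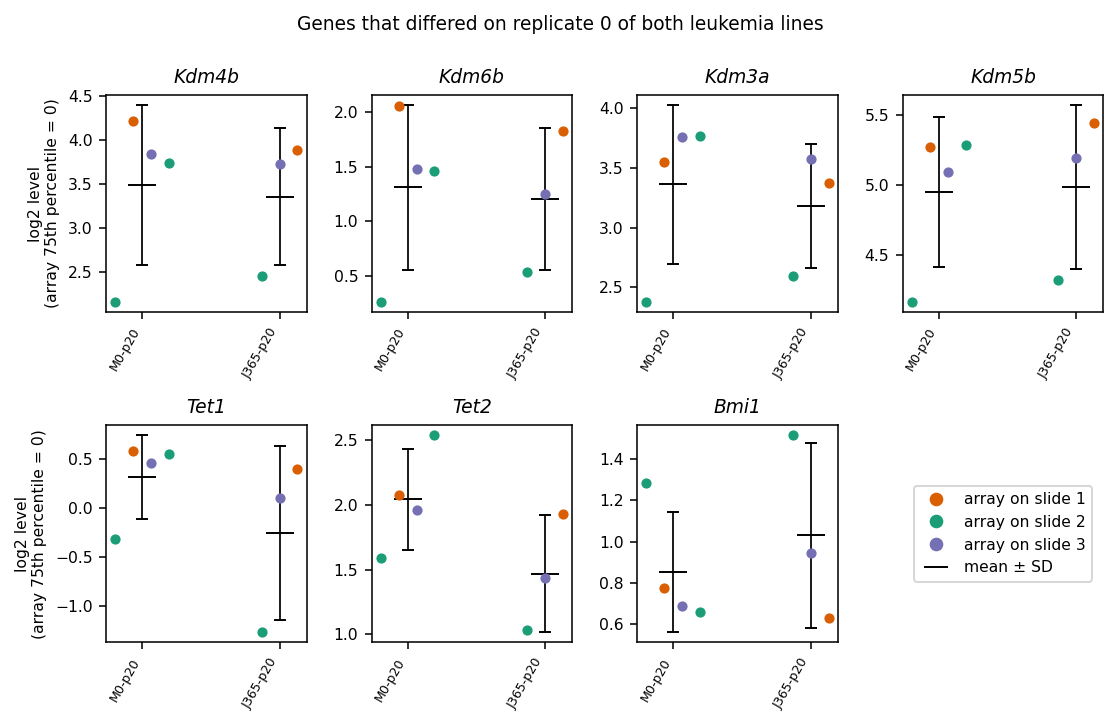
Log2 level (y axis) on each M0-p20 and J365-p20 array, coloured by slide and drawn in replicate order from the left, with mean ± SD. Replicate 0, the leftmost point, is the lowest of its line for Kdm4b (2.16 and 2.46), Kdm6b, Kdm3a, Kdm5b, Tet1 and Tet2 and the highest for Bmi1.

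Slide 1 also stood apart. The slide 1 mean was lower than that of the other slides in all 7 lines for 9 of 47 genes and higher in all 7 for 13. The largest mean differences were -0.88 for the H3K9 methyltransferase Suv39h2, -0.83 for Tet3 and -0.82 for the PRC1 reader Cbx8, and 0.62 for Kdm6b. Every line has arrays on all 3 slides except B16-D, whose arrays used here lie on slides 1 and 3.

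**Figure D5:**
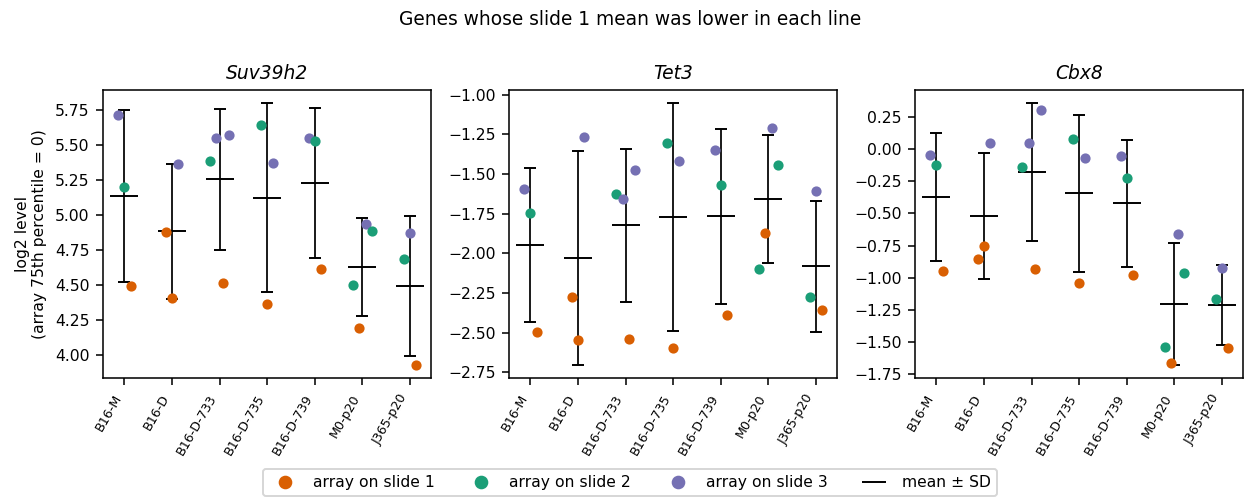
Log2 level (y axis) of Suv39h2, Tet3 and Cbx8 on each array of the 7 lines, coloured by slide, with mean ± SD. The slide 1 points are lowest in every line for Suv39h2 (-1.14 to -0.58 from the other slides) and Cbx8 (-1.05 to -0.50), while for Tet3 a slide 2 array of M0-p20 is lower.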

How the data were processed

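RNA of 24 cultures or aliquots of 7 mouse tumour lines was hybridised to 1-colour Agilent arrays. The authors deposited scanner output of Agilent Feature Extraction (version 10.7.3.1, per the submitters' processing notes), whose processed signal is a background-corrected intensity per spot, and a table of the same intensities, equal to the processed signal when set against the deposited scanner files. Control spots (3671 of 62976) were left out, replicate spots were averaged, and log2 processed signal minus the 75th percentile of each array was used. Gene symbols came from RefSeq accessions. For each gene the probe with the highest mean over 23 arrays was taken, and genes well above background on at least 3 arrays of a fit were tested, 24310 in melanoma, 22967 in leukemia, 26757 between parental lines and 20817 in the interaction, including transcripts without a symbol.

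Fits used limma 3.58.1 (R 4.3.3; lmFit, contrasts.fit and eBayes, two-sided) on 16 melanoma arrays, 7 leukemia arrays or all 23, with Benjamini-Hochberg adjustment at 0.05 over all genes, after tests on simulated data with 200 changed genes. Slide, replicate block, left-out arrays, normexp background correction (offset 50) on median signals, quantile normalization, probe choice and filters were alternatives. The deposited table was counted as an alternative too, and could not differ from the main fit because its values equal the processed signal. For a gene with a single probe, such as Cbx7, Dnmt1, Kdm5b or Hdac2, the probe choices could not change the difference either. Left-out arrays included those of lines in a fit but outside the comparison. A bound sets the bright line's mean against the lowest signal well above background, or the dim probe's own if higher, on each array of the dim line.

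Named genes were those past the threshold in a dormancy comparison, a list chosen by name (Ezh2, Kdm6b, Kmt2a, Kdm5b, Suv39h1, Setdb1, Dnmt1, Dnmt3a, Dnmt3b, Tet2 and Uhrf1), the 10 largest parental differences, genes on no array of a line, and the 3 other pathway genes with the smallest adjusted p that passed. The members and lists were chosen with earlier results of these data known. Replicate numbers come from the sample titles. The residuals of same-numbered arrays correlated at 0.28 to 0.78 between B16-D-733 and B16-M and at 0.52 to 0.78 between B16-D-739 and B16-M. The correlation was 0.04 or below for at least 1 pair in the other dormancy comparisons. The exception was B16-D-735 against B16-D, which share 2 numbers (0.23 and 0.62). The main fits took no numbers as pairs, and replicate number entered only in the replicate block among the alternatives. The replicate block also left out replicate 3 of B16-D-733. The B16-D-739 pairs share slides.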

Additional observations from a re-analysis of the deposited data

Results flagged for a closer look

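In lines of 4 arrays, the array farthest from the rest was set against the spread of the others (gap over range above the 95% critical value of Dixon's test) for 94 combinations of gene and line. There were 10 that passed, or 10.6%, where chance gives about 1 in 20. In M0-p20, replicate 0 stood apart for 4 genes: Kdm3a at 2.37 (others 3.55 to 3.77), Kdm5b at 4.16 (others 5.09 to 5.28), Tet1 at -0.32 (others 0.47 to 0.58) and Suz12 at 2.71 (others 2.41 to 2.46). Replicate 1 stood apart for Hdac3 at 1.75 (others 1.23 to 1.31) and Setdb1 at 0.045 (others 0.11 to 0.13), and replicate 2 for Kmt2c at 1.54 (others 1.98 to 2.01). In B16-D-733, Kdm4a was at 1.35 on replicate 1 (others at 1.52), Kdm5a at 1.75 on replicate 2 (others 2.21 to 2.24) and Tet1 at -2.90 on replicate 0 (others -2.49 to -2.42). The cause of these values was not tested.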

How the results depend on the processing

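Of 1250 recalculated differences of called genes, none reversed and 92 missed the threshold. The 1250 include those from the deposited table, which repeat the main fit. The number called in B16-D-733 against B16-M, 0, became 1 with normexp correction (Tet2), 2 with genes above background on every array of a line (Tet2 and Trim28), 1 with the mean of all probes (Trim28), 3 with slide as a block and 1 with the replicate block (Tet2). In B16-D-735 against B16-M 1 became 2 with slide as a block, and in B16-D-739 against B16-M 0 became 1. In B16-D-735 against B16-D 3 became 1 (Cbx7) with normexp correction, with no filter on dim probes, with B16-D replicate 2 and with the replicate block, 5 with slide as a block and 0 with only the lines compared, where 312 genes were called in all against 1946. Against the other second-generation lines 6 became 11 with slide as a block. The interaction, 0, became 1 (Rnf2) with the mean of all probes and with slide as a block. The replicate block changed no other count of members by over 1.5 times.

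Leaving out single arrays gave 0 to 1 in B16-D against B16-M (Ezh1 without B16-D replicate 0), 0 to 1 in B16-D-733, 1 to 2 in B16-D-735 (2 without B16-M replicate 2), 1 to 7 in B16-D-735 against B16-D (7 without B16-D replicate 0, 1 without B16-D replicate 1 or 3 or B16-D-735 replicate 2), 3 to 8 against the other second-generation lines (3 without B16-D-735 replicate 2, namely Cbx7, Setdb1 and Uhrf1) and 23 to 29 between parental lines. The 0 of J365-p20 against M0-p20 stood throughout. Without a filter on dim probes the median of all genes in B16-D-735 against B16-D moved from 0.04 to -0.15. Between settings the counts of all genes differed by over 1.5 times in several comparisons, for example 876 in B16-D against B16-M and 86 with only the lines compared. A planned normexp correction on mean signals was not run, since the columns used here hold median signals. Signal over background limited Cbx7 in leukemia and Dnmt3l in melanoma, for which no fold beyond a bound could be given. The cause of these changes was not tested.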
